A study of Mus musculus with 30 samples.

Results

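The 7 genes described here encode the alpha-arrestins Txnip, Arrdc1, Arrdc2, Arrdc3 and Arrdc4, the Mondo transcription factor Mlxip (MondoA) and its partner Mlx. They are 7 of the 57186 gene identifiers of a count table, found by matching identifiers to the listed symbols. The set was chosen by family and by the measured rise of Txnip: that Txnip mRNA rose in these libraries was known when the genes were put together. The levels and fold changes of Txnip are therefore a description, given with no test. The other 6 genes were tested within fits of all genes, and their calls are read against the share of all genes called.

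The libraries came from 2 mouse cell lines, NIH/3T3 fibroblasts grown in DMEM with fetal bovine serum and CGR8 embryonic stem cells grown in N2B27 medium with 2i and LIF. All groups, the controls included, carried the genotype labelled ROSA26 SLT knock-in, and whether each line was 1 clone is not given in the sources used here. Cycloheximide (CHX), which blocks the elongation step of translation, was used at 0.1 µg/mL. Each line has 3 replicates (A, B and C) for every exposure of 0, 1, 2, 5 or 48 h, which makes 30 libraries. The 0 h libraries of each line are its untreated reference. The series has no untreated library at the later times, so CHX and time in culture cannot be told apart in the changes against 0 h. Nothing in the labels says that the replicates were separate cultures, so the p-values measure the spread between these samples, which may be technical.

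Alpha-arrestins are adaptor proteins with an arrestin fold. They bind membrane proteins and recruit ubiquitin ligases of the NEDD4 family, which mark the cargo for internalization and sorting. TXNIP also binds thioredoxin, and TXNIP and ARRDC4 are known to lower glucose uptake by promoting endocytosis of glucose transporters. MLXIP and its relative MLXIPL (ChREBP) pair with MLX, respond to glucose 6-phosphate and bind carbohydrate response elements, which are pairs of E-box-like motifs. Txnip and Arrdc4 are among their best known target genes, and Txnip has long been described as a glucose-responsive gene.

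The stretches before the transcript starts of Txnip and Arrdc4 are shown because both mRNAs rose and both genes are known Mondo targets. They are the 250 bases upstream of the start in RefSeq (build GRCm38.p6), read 5′ to 3′ on the strand of the gene, chr3:96557707-96557956 on the plus strand for Txnip and chr7:68749239-68749488 on the minus strand for Arrdc4. Capitals mark matches, on either strand, to 4 motifs: the E-box CACGTG, a paired E-box-like pattern CACGNGNNNNNCNCGNG, the forkhead-type motif GTAAACA and the CCAAT box (ATTGG where it lies on the other strand).
Txnip: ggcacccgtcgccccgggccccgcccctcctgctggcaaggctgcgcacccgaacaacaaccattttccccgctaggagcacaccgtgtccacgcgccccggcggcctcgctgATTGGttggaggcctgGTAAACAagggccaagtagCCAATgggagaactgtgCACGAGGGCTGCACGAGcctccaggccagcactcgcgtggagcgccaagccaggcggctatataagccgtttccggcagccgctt
Arrdc4: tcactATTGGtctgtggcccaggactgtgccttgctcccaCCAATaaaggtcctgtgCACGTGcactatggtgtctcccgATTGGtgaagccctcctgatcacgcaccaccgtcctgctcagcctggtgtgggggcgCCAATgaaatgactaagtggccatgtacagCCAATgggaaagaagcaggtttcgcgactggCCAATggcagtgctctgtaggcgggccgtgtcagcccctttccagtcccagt

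In the Txnip window the paired pattern was matched once, by CACGAGGGCTGCACGAG at bases -85 to -69 from the start. The forkhead-type motif lay at -121 to -115, and CCAAT boxes lay at -102 to -98 and, on the other strand, at -137 to -133. None of these matches overlapped another. Of 32851 RefSeq windows of the same length, 92 (0.28%) held the paired pattern, 1040 (3.17%) the forkhead-type motif and 11120 (33.8%) a CCAAT box. Windows with all of these 3 motifs numbered 2 (0.00609%), the Txnip window among them. The combination is the one found in the Txnip window, so its share is no measure of how unusual that window is. The Arrdc4 window held 6 CCAAT boxes and 1 E-box at -193 to -188, and the paired pattern was not matched in these letters. An E-box, found in 6.02% of all windows, was also matched before Mlx, at -40 to -35. The windows of Arrdc1, Arrdc2, Arrdc3 and Mlxip held none of the E-box, paired or forkhead-type patterns at any RefSeq start, and Arrdc1 held no CCAAT box either. A match is a description of the letters and says nothing of binding in these cells.

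**Figure D1:**
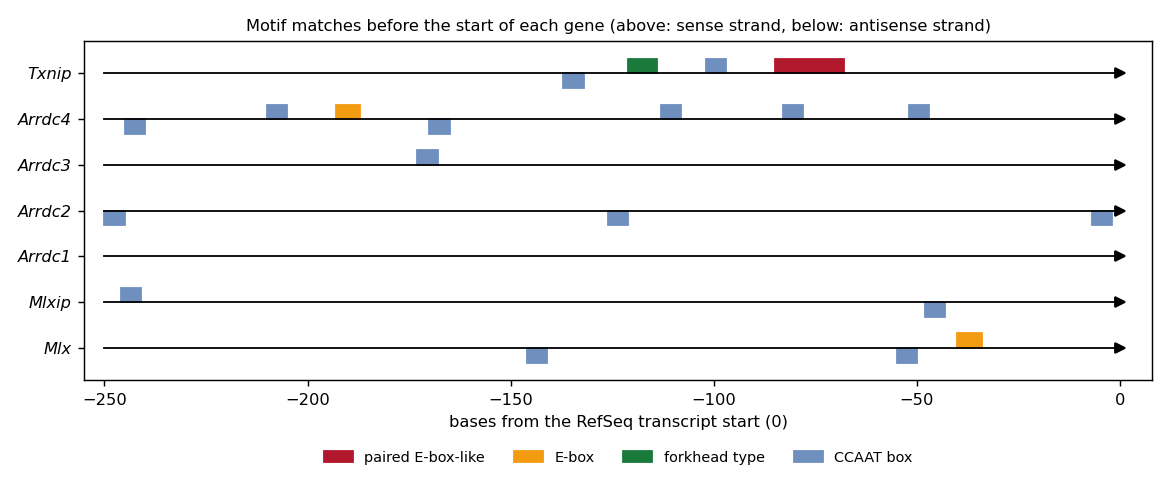
Motif matches in the 250 bases before the RefSeq start of each gene, plotted as bases from the start, with matches on the strand of the gene above each line and matches on the other strand below it. Txnip is the only one of the 7 genes with the paired E-box-like pattern (-85 to -69) and the forkhead-type motif (-121 to -115), and Arrdc4 has the most CCAAT boxes, 6.

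Totals lay between 18.2 and 30.5 M counts per library. Levels are CPM, counts scaled to library size with TMM factors within each line, and levels of different genes or lines are compared as CPM per kb of exon with 1 scaling of all libraries. No NIH/3T3 library exceeded 0.418 CPM for Pou5f1, Nanog, Tfcp2l1 or the 4 other naive stem cell markers checked besides Klf4, while all CGR8 libraries had 310.4 CPM or more of each. Klf4, which also serves outside stem cells, was at 191 CPM or more in NIH/3T3. Col1a1, Col1a2, Col3a1 and Lox, the defining collagens and crosslinker of fibroblasts, were at or above 219 CPM in NIH/3T3 and at or below 0.719 CPM in CGR8, but Thy1 went the other way, with at most 0.0914 CPM in NIH/3T3 and 1.48 to 4.51 CPM in CGR8. Postn did not exceed 0.993 CPM in NIH/3T3. The whole list of 9 fibroblast markers, with Fn1 and Vim that CGR8 also expressed, summed to 9557 to 16459 CPM in NIH/3T3 and 749.6 to 1725 CPM in CGR8. The summed level of 8 genes of differentiation ranged from 11.2 to 17.97 CPM across the CGR8 libraries. In NIH/3T3 it ranged from 11.95 to 20.9 CPM, with Gata4 alone at 11.8 to 20.7 CPM, so the sum did not tell the lines apart. By the root mean square of log2 differences over genes, 9 libraries lay nearer to another time than to their own replicates. Each was compared with the mean of its 2 other replicates and with the means of all 3 libraries of other times. The mean of fewer libraries is noisier, which makes the distance to the own group somewhat larger. Small gaps, as for CGR8 2 h replicate A, therefore place no library. For NIH/3T3 1 h replicate C the distance was 0.55 to its own group and 0.40 to 2 h, for NIH/3T3 2 h replicate A 0.52 and 0.49 to 1 h, and for CGR8 2 h replicate A 0.58 and 0.57 to 0 h. CGR8 2 h replicate B was nearer to 1 h (0.33) than to its own group (0.43). The other 5 were 0 h or 1 h libraries nearer to the other of these times, among them NIH/3T3 1 h replicates A and B, so that leaving out all 9 would leave no NIH/3T3 library at 1 h. NIH/3T3 1 h replicate C, NIH/3T3 2 h replicate A and CGR8 2 h replicate A, called the 3 set-aside libraries below, were left out together as an alternative added after the data were seen. Their groups then had 2 libraries each. Leaving out libraries chosen for their distance from their own replicates lowers the fitted spread. The smaller adjusted p-values and the added calls of this alternative are therefore not further evidence of a change. CGR8 2 h replicate B was left out only on its own.

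The number of the 6 tested genes that passed the test rose from 1 at 1 h to most of them at 5 h in both lines. In NIH/3T3, edgeR's quasi-likelihood test with Benjamini-Hochberg adjustment over 13941 genes called 1 of 6 at 1 h, where 0.732% of all genes were called. At 2 h it called 5 of 6 (35% of all genes). The 5 h libraries gave 5 of 6 (51%) and the 48 h libraries 4 of 6 (52.3%). Between 5 h and 48 h 4 of 6 were called (65.6%). In CGR8, over 15933 genes, 1 of 6 was called at 1 h (0.27% of all genes) and 3 of 6 at 2 h (19.9%). The 5 h libraries gave 6 of 6 (52.1%) and the 48 h libraries 2 of 6 (27.8%). Between 5 h and 48 h 5 of 6 were called (57.5%). Where so many genes are called, a call says little of these genes in particular. The NIH/3T3 1 h share depended on single libraries: without the 3 set-aside libraries 14.7% of all genes were called at 1 h, and again 1 of the 6. The NIH/3T3 2 h share was 54.0% without them, and 21.4% without 2 h replicate C or 21.6% without 0 h replicate A. The CGR8 2 h share was 6.4% when only the 0 h and 2 h libraries were fitted, with 1 of 6 called, and without 2 h replicate B it was 24.1%, with 4 of 6 called.

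**Figure D2:**
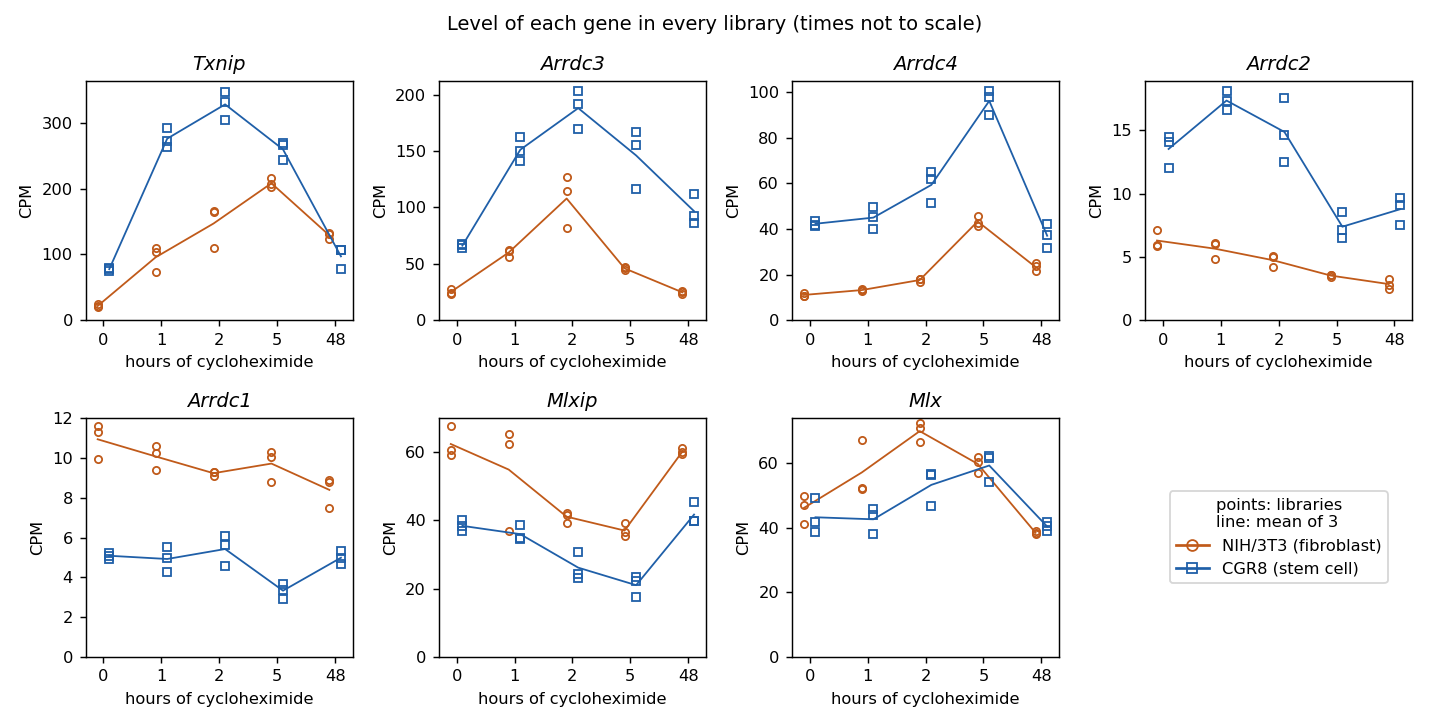
Level of each gene in CPM (y axis, from 0, scaled within each line) in every library at 0, 1, 2, 5 and 48 h (x axis, not to scale), with circles for NIH/3T3, squares for CGR8 and lines through the means of 3. Txnip, Arrdc3 and Arrdc4 rise, with the highest means at 2 or 5 h, and Mlxip falls to 5 h and is back at its 0 h level at 48 h.

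Txnip (ENSMUSG00000038393), which binds thioredoxin and restrains glucose uptake, had the largest rise of the 7 genes. In NIH/3T3 its replicates A, B and C had 20.7, 19.4 and 24.3 CPM at 0 h, 104, 109 and 73.0 CPM at 1 h and 110.0, 166 and 164 CPM at 2 h. They had 206, 215 and 203 CPM at 5 h and 131, 132 and 124 CPM at 48 h. All libraries at each later time were above all libraries at 0 h, and the low values at 1 h and 2 h were those of 1 h replicate C and 2 h replicate A. The log2 fold change against 0 h was 2.15 (SE 0.16) at 1 h, 2.77 (SE 0.17) at 2 h, 3.27 (SE 0.17) at 5 h and 2.58 (SE 0.16) at 48 h, with 3 libraries per group. It was 2.29 at 1 h and 2.95 at 2 h without the 3 set-aside libraries. By size it ranked 4, 10, 8 and 142 of 13941 genes at 1, 2, 5 and 48 h, and a large rise is the property it was selected on.

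In CGR8 Txnip started higher, at 77.8, 74.6 and 80.0 CPM, and rose earlier. It had 264, 272 and 292 CPM at 1 h, 305, 332 and 347 CPM at 2 h and 269, 244 and 266 CPM at 5 h. At 48 h replicate A, at 77.6 CPM, lay within the 0 h range and replicates B and C were at 107 and 106 CPM, so the groups overlapped. On the log2 scale the change from 0 h was 1.83 (SE 0.12) at 1 h, 2.08 (SE 0.12, and 2.13 without replicate A) at 2 h, 1.75 (SE 0.12) at 5 h and 0.32 (SE 0.11) at 48 h. Its ranks by size were 21, 46, 460 and 7642 of 15933 genes. The rise was mostly complete at 1 h in CGR8, where 79.2% of the distance from the 0 h mean to the highest mean had been covered. In NIH/3T3 that share was 39.6%, and 45.7% without 1 h replicate C. At 48 h 57.5% of the rise remained in NIH/3T3 and 7.78% in CGR8.

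Measured as a difference of levels and not as a fold, the 5 h rises of Txnip in the lines lay within 1 SE of each other. It was 59.1 CPM per kb (SE 1.33) above 0 h in NIH/3T3 and 60.5 CPM per kb (SE 2.27) in CGR8, from 0 h means of 6.98 and 24.4 CPM per kb. At 1 h the rises were 23.5 (SE 3.79) and 62.4 (SE 2.41) CPM per kb. At 48 h they were 35.7 (SE 1.14) and 6.37 (SE 3.05) CPM per kb, so the line with the smaller rise at 1 h had the larger one at 48 h.

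Arrdc3 (ENSMUSG00000074794), an adaptor known for the sorting of beta-adrenergic receptors and integrins, was the only tested member called at 1 h in either line. In NIH/3T3 it had 24.3, 27.7 and 22.8 CPM at 0 h, 62.5, 61.2 and 56.4 CPM at 1 h and 82.1, 127 and 115 CPM at 2 h. It then had 46.1, 44.5 and 47.1 CPM at 5 h and 25.0, 25.4 and 23.5 CPM at 48 h. The values at 1, 2 and 5 h did not overlap those at 0 h, and the 48 h values lay inside the 0 h range. Its log2 fold change was 1.27 (SE 0.13, edgeR adjusted p 2.12e-05) at 1 h, 2.12 (SE 0.13, adjusted p 7.48e-09) at 2 h and 0.88 (SE 0.13, adjusted p 3.72e-05) at 5 h. At 48 h it was -0.02 (SE 0.13, adjusted p 0.921). Leaving out the 3 set-aside libraries gave 1.30 at 1 h (adjusted p 5.12e-10) and 2.30 at 2 h (adjusted p 2.08e-14).

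In CGR8 Arrdc3 also peaked at 2 h. Its levels were 64.2, 66.4 and 67.7 CPM at 0 h, 142, 149.8 and 162 CPM at 1 h and 169.8, 203 and 192 CPM at 2 h. At 5 h replicate A was at 116 CPM and replicates B and C at 155 and 167 CPM, and at 48 h the 3 libraries had 86.1, 92.1 and 112 CPM. Every treated library was above every 0 h library. Against 0 h the fitted log2 change was 1.19 (SE 0.13, edgeR adjusted p 0.000487) at 1 h, 1.51 (SE 0.13, adjusted p 6.74e-06) at 2 h, 1.15 (SE 0.13, adjusted p 7.01e-06) at 5 h and 0.55 (SE 0.13, adjusted p 0.0056) at 48 h. Without replicate A of 2 h the 2 h value was 1.57 (adjusted p 8.09e-06).

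Arrdc4 (ENSMUSG00000042659), the other member known for lowering glucose uptake, rose later. In NIH/3T3 it had 10.7, 11.8 and 10.6 CPM at 0 h, 13.1, 13.5 and 12.9 CPM at 1 h and 16.7, 18.2 and 17.9 CPM at 2 h. It reached 42.6, 41.4 and 45.9 CPM at 5 h and was at 24.9, 23.5 and 21.3 CPM at 48 h. No 2 of these 5 groups overlapped. Fitted log2 fold changes were 0.26 (SE 0.09, edgeR adjusted p 0.301) at 1 h, 0.67 (SE 0.09, adjusted p 9.62e-05) at 2 h, 1.97 (SE 0.09, adjusted p 4.08e-10) at 5 h and 1.08 (SE 0.09, adjusted p 1.49e-07) at 48 h. Without the 3 set-aside libraries the values were 0.26 at 1 h (adjusted p 0.0574) and 0.73 at 2 h (adjusted p 9.55e-07).

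In CGR8 Arrdc4 had 41.7, 43.6 and 41.5 CPM at 0 h, 40.1, 45.1 and 49.8 CPM at 1 h and 51.4, 64.9 and 61.8 CPM at 2 h. At 5 h it had 98.0, 100.4 and 90.2 CPM, above all other times, and at 48 h 31.8, 37.2 and 42.1 CPM, where it overlapped the 0 h libraries again. Relative to 0 h the log2 change was 0.09 (SE 0.12, edgeR adjusted p 0.838) at 1 h, 0.49 (SE 0.12, adjusted p 0.0121) at 2 h, 1.19 (SE 0.12, adjusted p 2.54e-06) at 5 h and -0.19 (SE 0.12, adjusted p 0.259) at 48 h. The 2 h call was lost without replicate C at 2 h (adjusted p 0.0558), without replicate A at 0 h (0.0507) and when only the 0 h and 2 h libraries were fitted (0.0548), and was kept without 2 h replicate A (0.58, adjusted p 0.0044).

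Arrdc4 rose later than Arrdc3 in both lines. At 1 h Arrdc4 had covered 6.63% of its rise to the 5 h peak in NIH/3T3 and 5% in CGR8, while Arrdc3 had covered 42.2% and 69.7% of its rise to the 2 h peak. Txnip and Arrdc3 had similar courses in CGR8, where both peaked at 2 h and had 72.7% and 65.6% of the rise left at 5 h. In NIH/3T3 Txnip peaked at 5 h, when 25.3% of the rise of Arrdc3 was left. From 5 h to 48 h Arrdc3 fell by 0.90 on the log2 scale in NIH/3T3 (SE 0.13, edgeR adjusted p 1.35e-05) and fell by 0.60 in CGR8 (SE 0.13, adjusted p 0.00115). Arrdc4 fell by 0.89 in NIH/3T3 (SE 0.09, adjusted p 2.73e-07) and fell by 1.38 in CGR8 (SE 0.12, adjusted p 3.28e-07). Txnip, not tested, fell by 0.69 (SE 0.15) in NIH/3T3 and fell by 1.42 (SE 0.12) in CGR8.

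**Figure D3:**
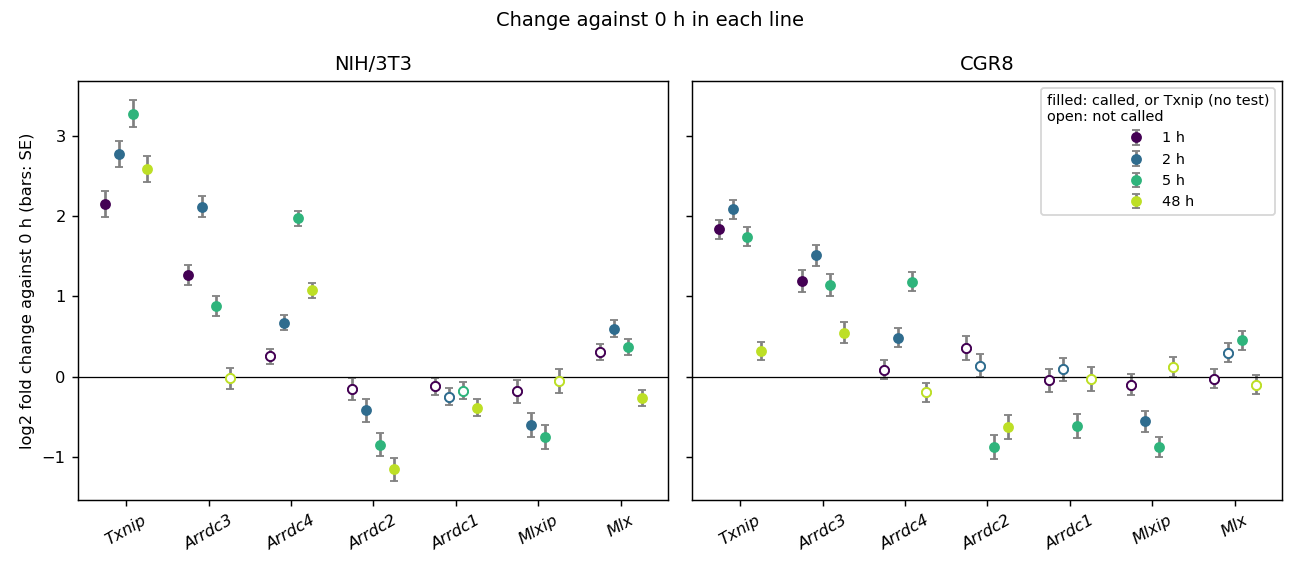
Log2 fold change against 0 h (y axis, with SE bars) of the 7 genes at 1, 2, 5 and 48 h in NIH/3T3 (left) and CGR8 (right), with open points for changes that were not called and filled points for called changes and for Txnip, which was not tested. Arrdc3 is highest at 2 h and Arrdc4 at 5 h in both lines, and Txnip is still 2.58 above 0 h at 48 h in NIH/3T3 but 0.32 above it in CGR8.

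Arrdc2 (ENSMUSG00000002910), a less studied member of the family, fell. In NIH/3T3 it had 5.92, 5.85 and 7.10 CPM at 0 h, 3.58, 3.40 and 3.58 CPM at 5 h and 2.48, 3.25 and 2.81 CPM at 48 h, without overlap between 0 h and either later time. These changes were -0.84 at 5 h (SE 0.14, edgeR adjusted p 0.000147) and -1.15 at 48 h (SE 0.15, adjusted p 8.88e-06). At 1 h it was -0.16 (SE 0.14, adjusted p 0.723), and -0.08 (adjusted p 0.705) without the 3 set-aside libraries. The call at 2 h (-0.42, SE 0.14, adjusted p 0.0292) was lost under several alternatives, among them without 0 h replicate C (adjusted p 0.158), 2 h replicate B (0.118) or 2 h replicate C (0.0549), and was kept without 2 h replicate A and 1 h replicate C together (-0.44, adjusted p 0.00845). In CGR8 it had 14.1, 12.02 and 14.5 CPM at 0 h and 18.1, 17.3 and 16.6 CPM at 1 h. These groups did not overlap, but the change of 0.36 (SE 0.14, adjusted p 0.538) was not called. It then fell to 8.52, 6.47 and 7.15 CPM at 5 h and was at 9.64, 9.14 and 7.53 CPM at 48 h. On the log2 scale it stood at 0.14 at 2 h (SE 0.14, adjusted p 0.524, or adjusted p 0.24 without 2 h replicate A), -0.87 at 5 h (SE 0.15, adjusted p 0.000177) and -0.62 at 48 h (SE 0.15, adjusted p 0.00468).

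Arrdc1 (ENSMUSG00000026972), which recruits TSG101 for the budding of vesicles at the plasma membrane, moved least in NIH/3T3. Its libraries there lay between 8.81 and 11.6 CPM at all times but 48 h, where they had 8.79, 7.51 and 8.90 CPM. The log2 fold change at 48 h was -0.38 (SE 0.11, edgeR adjusted p 0.00707), and those at 1, 2 and 5 h, -0.12, -0.25 and -0.17 (each with SE 0.11), were not called. Without the 3 set-aside libraries the 1 h value was -0.09 (adjusted p 0.598) and the 2 h value -0.24 (adjusted p 0.0617). In CGR8 Arrdc1 had 4.94, 5.08 and 5.23 CPM at 0 h and 3.68, 3.38 and 2.92 CPM at 5 h. Every 5 h library was below every library of the other 4 times. At 1 and 2 h the values of -0.04 (adjusted p 0.941) and 0.09 (adjusted p 0.692) were not called, nor was the 2 h value without replicate A (adjusted p 0.991). The change at 5 h was -0.61 (SE 0.15, adjusted p 0.00322), and it was reversed from 5 h to 48 h by 0.59 (SE 0.15, adjusted p 0.00377).

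The summed alpha-arrestin mRNA and the shares of its genes changed, and both changes follow largely from Txnip, which was selected on its rise. In NIH/3T3 Txnip alone rose by 59.1 CPM per kb at 5 h and 35.7 at 48 h. In CGR8 it rose by 80.5 CPM per kb at 2 h and 6.37 at 48 h. The summed level of the 5 alpha-arrestin genes in NIH/3T3 went from 20.2 ± 1.05 CPM per kb (SD, n = 3) at 0 h to 88.8 ± 1.42 at 5 h and 57.1 ± 2.32 at 48 h. In CGR8 it went from 51.1 ± 0.828 CPM per kb at 0 h to 156 ± 11.4 at 2 h and 59.8 ± 7.43 at 48 h. Txnip made up 34.5% ± 2.63 of that sum in untreated NIH/3T3 and 74.3% ± 1.20 at 5 h, and it still made up 74.8% ± 0.481 at 48 h. In CGR8 its share was 47.7% ± 0.753 at 0 h, 67.5% ± 0.417 at 1 h and 51.3% ± 3.19 at 48 h. The share of Arrdc1 in NIH/3T3 was 21.9% ± 1.33 at 0 h and 4.32% ± 0.309 at 5 h, although its own level was not called as changed at 5 h. The shares rest on exon lengths of an annotation that may differ from the one used for counting, which scales each gene by a constant.

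**Figure D4:**
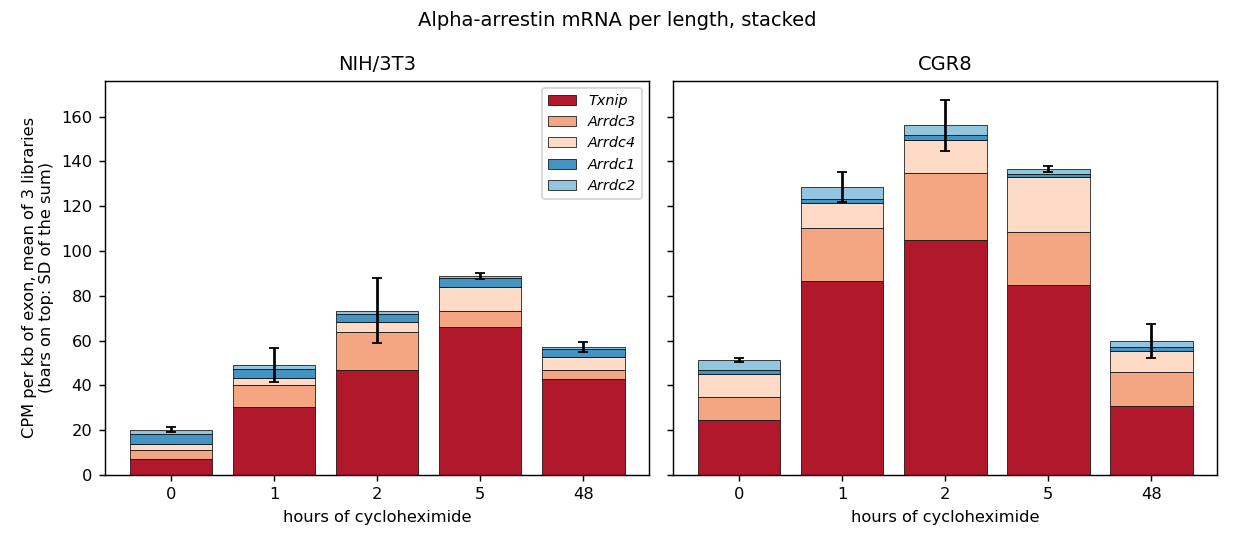
Stacked mean level of the 5 alpha-arrestin genes in CPM per kb of exon (y axis, from 0) at each time of cycloheximide (x axis, h) in NIH/3T3 (left) and CGR8 (right), with bars for the SD of the sum over 3 libraries. Txnip makes up 34.5% of the sum in NIH/3T3 at 0 h and 74.8% at 48 h, when the sum in CGR8 is back near its 0 h level. Txnip was selected on its rise, which makes up most of the rise of the sum.

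Mlxip (ENSMUSG00000038342), the glucose-sensing partner of Mlx, moved opposite to Txnip at 2 and 5 h. In NIH/3T3 it had 67.6, 60.5 and 59.1 CPM at 0 h, 62.5, 65.3 and 36.9 CPM at 1 h and 42.2, 41.7 and 39.3 CPM at 2 h. It had 35.3, 36.5 and 39.3 CPM at 5 h and 60.1, 61.2 and 59.4 CPM at 48 h. The 2 h and 5 h libraries were all below the 0 h libraries, those at 48 h lay inside the 0 h range, and at 1 h replicate C alone stood at the level of 2 and 5 h. Mlxip had a log2 fold change of -0.18 (SE 0.15, edgeR adjusted p 0.699) at 1 h, -0.60 (SE 0.15, adjusted p 0.00603) at 2 h, -0.75 (SE 0.15, adjusted p 0.000521) at 5 h and -0.05 (SE 0.15, adjusted p 0.788) at 48 h. Without the 3 set-aside libraries the values were 0.02 at 1 h (adjusted p 0.863) and -0.60 at 2 h (adjusted p 6.45e-07).

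In CGR8 Mlxip had 40.0, 36.8 and 38.4 CPM at 0 h, 38.7, 34.8 and 34.5 CPM at 1 h and 24.4, 30.8 and 23.2 CPM at 2 h. It had 17.6, 22.1 and 23.3 CPM at 5 h and 39.8, 39.9 and 45.5 CPM at 48 h. The time course was of the same shape as in NIH/3T3, with no overlap between 0 h and 2 or 5 h. Its fitted log2 changes were -0.10 (SE 0.13, edgeR adjusted p 0.835) at 1 h, -0.55 (SE 0.13, adjusted p 0.00807) at 2 h, -0.87 (SE 0.13, adjusted p 5.25e-05) at 5 h and 0.12 (SE 0.13, adjusted p 0.522) at 48 h. The 2 h call was lost without 2 h replicate C (adjusted p 0.0528) and when only the 0 h and 2 h libraries were fitted (0.053), and was kept without 2 h replicate A (-0.51, adjusted p 0.0192). The return from 5 h to 48 h was called in both lines, by 0.70 in NIH/3T3 (SE 0.15, adjusted p 0.000563) and 0.99 in CGR8 (SE 0.13, adjusted p 1.14e-05).

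Mlx (ENSMUSG00000017801), the obligate partner of both Mondo proteins, rose at 5 h in both lines, when Mlxip fell, but by less than the median absolute change of all genes. In NIH/3T3 it had 41.3, 49.9 and 47.1 CPM at 0 h, 52.4, 51.9 and 67.0 CPM at 1 h, 66.4, 71.0 and 72.3 CPM at 2 h and 56.9, 61.9 and 60.4 CPM at 5 h. At 48 h its 37.9, 39.04 and 38.2 CPM were below all other libraries of the line. The changes on the log2 scale were 0.31 (SE 0.10, edgeR adjusted p 0.238) at 1 h, 0.60 (SE 0.10, adjusted p 0.000513) at 2 h, 0.37 (SE 0.10, adjusted p 0.00568) at 5 h and -0.26 (SE 0.10, adjusted p 0.039) at 48 h. With the 3 set-aside libraries left out Mlx was at 0.16 at 1 h (adjusted p 0.112) and 0.65 at 2 h (adjusted p 1.55e-07). The 48 h call was lost under 8 alternatives, with adjusted p up to 0.14, among them the omission of 0 h replicate B or C or of any 48 h library. In CGR8 Mlx had 41.8, 49.1 and 38.7 CPM at 0 h and 61.5, 62.1 and 54.1 CPM at 5 h, without overlap. Fitted changes were -0.02 (SE 0.12, adjusted p 0.967) at 1 h, 0.30 (SE 0.12, adjusted p 0.0776) at 2 h, 0.46 (SE 0.12, adjusted p 0.00402) at 5 h and -0.10 (SE 0.12, adjusted p 0.57) at 48 h. By size the 5 h change of Mlx ranked 7426 of 13941 genes in NIH/3T3 and 8730 of 15933 in CGR8. The median absolute change of all genes at 5 h was 0.402 in NIH/3T3 and 0.507 in CGR8. The 2 h change was called without 2 h replicate B (0.39, adjusted p 0.0314), without 0 h replicate B (0.39, adjusted p 0.0414) and with a filter at a mean of 5 CPM (0.33, adjusted p 0.0368). It was not called without 2 h replicate A (0.25, adjusted p 0.167).

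Mlx values are uncertain in one respect. In the GENCODE M21 annotation Mlx overlaps Psmc3ip on the other strand, and Psmc3ip had 28.3 ± 1.56 CPM (SD, n = 3) in NIH/3T3 at 0 h, 34.2 ± 1.65 at 5 h and 14.9 ± 0.0742 at 48 h. In CGR8 it had 21.8 ± 0.758, 35.8 ± 6.60 and 18.7 ± 2.96 CPM. In both lines the means of both genes were higher at 5 h and lower at 48 h than at 0 h. The 48 h change of Mlx in CGR8 was not called (-0.10, edgeR adjusted p 0.57). At 1 and 2 h in NIH/3T3 Psmc3ip had 27.2 ± 4.87 and 33.4 ± 6.7 CPM, and Mlx had 57.1 ± 8.59 and 69.9 ± 3.11 CPM. There the mean of Mlx was highest at 2 h and that of Psmc3ip at 5 h. The kit named in the labels marks strand, but whether the counting used strand is not given in the sources used here, and the part of Psmc3ip reads in the Mlx counts was not tested. The partners of the other members were low: Gm15441, antisense to Txnip, did not exceed 0.785 CPM in any library, and those of Arrdc3 and Mlxip did not exceed 0.221 CPM.

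The ratio of Mlx to Mlxip mRNA per kb widened and closed again. In NIH/3T3 the untreated ratio of 3.10 ± 0.486 (SD, n = 3) went to 7.10 ± 0.555 at 2 h and 6.73 ± 0.324 at 5 h, and the 48 h ratio was 2.66 ± 0.0263. In CGR8 the untreated ratio of 4.70 ± 0.741 went to 8.69 ± 2.08 at 2 h and 11.97 ± 2.44 at 5 h, and the 48 h ratio was 4.05 ± 0.430. The 2 and 5 h libraries lay above all 0 h libraries in both lines.

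The remaining relatives were near the limit of detection. Mlxipl had 0 counts in all 15 NIH/3T3 libraries, where 3 counts, the limit that a count of 0 allows, come to between 0.0986 and 0.163 CPM. In CGR8 it had 9 to 33 counts per library, from 0.363 to 1.30 CPM. Arrdc5 had 0 counts in all NIH/3T3 libraries and 1 to 8 counts in CGR8. These limits cover counting error only.

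In the untreated state the order of the genes differed between the lines. In NIH/3T3 Mlx was highest at 23.4 ± 2.16 CPM per kb (SD, n = 3), followed by Mlxip at 7.60 ± 0.553 and Txnip at 6.98 ± 0.901, whose libraries overlapped. Arrdc1 at 4.43 ± 0.398 and Arrdc3 at 4.04 ± 0.370 overlapped as well, and Arrdc4 at 2.77 ± 0.144 and Arrdc2 at 1.97 ± 0.239 came last. In CGR8 Txnip was highest at 24.4 ± 0.712 CPM per kb and overlapped Mlx at 21.3 ± 2.74. Arrdc3 at 10.4 ± 0.278 and Arrdc4 at 10.3 ± 0.350 overlapped, as did Mlxip at 4.53 ± 0.173 and Arrdc2 at 4.11 ± 0.378, and Arrdc1 was lowest at 1.99 ± 0.0539.

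The direct comparison of the untreated lines called 5 of the 6 tested genes, near the 79.1% of 17549 genes called, so the count says little of these genes in particular. Arrdc4 was 1.89 higher in CGR8 on the log2 scale (SE 0.11, edgeR adjusted p 2.31e-15), Arrdc3 1.36 higher (SE 0.14, adjusted p 3.8e-10) and Arrdc2 1.05 higher (SE 0.14, adjusted p 1.04e-07). Arrdc1 was lower in CGR8, with a log2 difference of -1.15 (SE 0.12, adjusted p 1.48e-09), as was Mlxip, with -0.75 (SE 0.14, adjusted p 2.45e-05). Mlx differed by -0.14 (SE 0.11, adjusted p 0.253), and Txnip, not tested, by 1.80 (SE 0.15). The median of all genes in this comparison was 0.15, and the median absolute difference was 1.255. The differences of Arrdc1, Arrdc2, Mlxip and Mlx were smaller in size than that. By size Arrdc4 ranked 6796, Txnip 7012 and Arrdc3 8358 of 17549 genes. Line, culture medium and cell type cannot be told apart in this design.

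The lines were then compared in their change against 0 h, as interactions in a fit of all 30 libraries. At 1 h 0.16% of all genes were called and at 2 h 2.03%. None of the 6 tested genes was called at these times by edgeR or by DESeq2, and the unadjusted p was under 0.05 for 1 of them at 1 h and for 3 at 2 h. Without NIH/3T3 2 h replicate A, Arrdc3 was called at 2 h, with a difference of -0.72, CGR8 minus NIH/3T3 (edgeR adjusted p 0.0137). Without the 3 set-aside libraries, Arrdc3 (-0.65, adjusted p 0.0222) and Arrdc2 (0.75, adjusted p 0.0367) were. The limit given above for that alternative holds for these calls.

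At 5 h 13.3% of all genes were called, and of the 6 genes Arrdc4 alone was, with a log2 difference of -0.70 (SE 0.15, edgeR adjusted p 0.00191). The median of all genes was 0.13, and relative to it the difference for Arrdc4 was -0.83. At 48 h 21.9% were called, and of the 6 Arrdc4 (-1.29, SE 0.15, adjusted p 4.65e-07) and Arrdc3 (0.55, SE 0.19, adjusted p 0.0372). The Arrdc4 values had the same direction and call in all 20 alternatives at each of the 2 times. The Arrdc3 call at 48 h was lost in 6 of 20, with adjusted p up to 0.122: with library totals alone and without CGR8 0 h replicate A, CGR8 48 h replicate C, NIH/3T3 0 h replicate B or NIH/3T3 48 h replicate A or C. For Txnip, not tested, the differences were -0.29 (SE 0.20) at 1 h, -0.64 (SE 0.20) at 2 h, -1.44 (SE 0.21) at 5 h and -2.28 (SE 0.21) at 48 h. They were -0.46 at 1 h and -0.76 at 2 h without the 3 set-aside libraries. Txnip and Arrdc4 differed between the lines in the same direction at 5 and 48 h. The differences of Arrdc3 and Arrdc2 were 0.35 and 0.06 at 5 h, neither called. At 48 h they were 0.55, called as given above, and 0.51, not called. The Arrdc2 difference at 5 h lay between -0.24 and 0.11 over the alternatives and was -0.07 relative to the median of all genes, so it had no stable direction. Txnip, Arrdc4, Arrdc3 and Arrdc2 all had the higher untreated level in CGR8, and a link of that level to the line differences was not tested. For Mlxip the differences at the 4 times lay between -0.03 and 0.15, with SE of 0.20, and none was called.

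**Figure D5:**
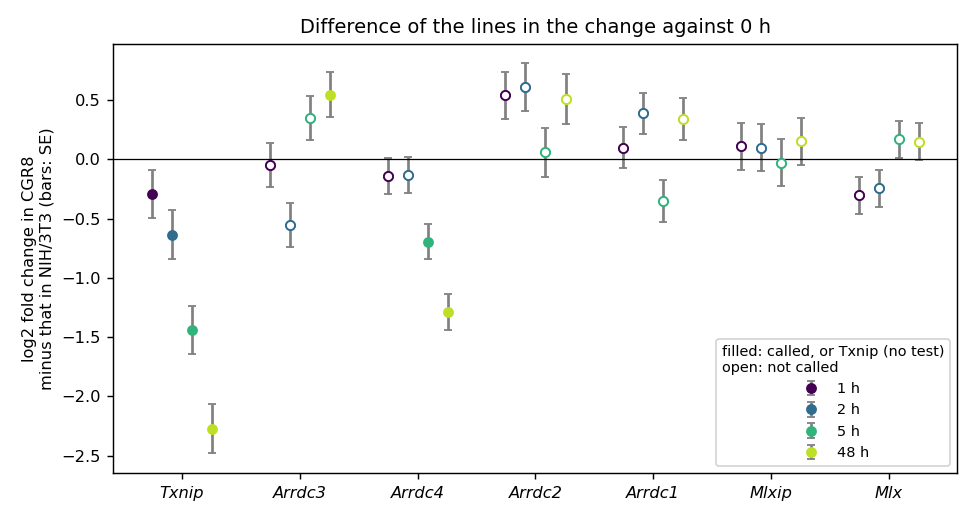
Log2 fold change against 0 h in CGR8 minus that in NIH/3T3 (y axis, with SE bars) for the 7 genes at 1, 2, 5 and 48 h, with open points for differences that were not called and filled points for called ones and for Txnip, which was not tested. At 48 h Txnip and Arrdc4 lie lowest, at -2.28 and -1.29, and Mlxip lies near 0 at all times.

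The lists of pathway genes around the members are described by their counts and medians, without a test of the list. The counts stand against the shares of all genes called, which were 51% in NIH/3T3 and 52.1% in CGR8 at 5 h and 52.3% and 27.8% at 48 h. Among the other partners of Mlx, the E-box repressors Mxd1, Mxd4 and Mnt and the factor Mlxipl, 3 of 3 tested genes fell in NIH/3T3 at 5 h (list median -1.06, median of all genes -0.01). Mnt, a repressor that opposes MYC, fell from 40.9 to 14.5 CPM (log2 fold change -1.497, SE 0.15, edgeR adjusted p 1.35e-06). Mxd1 fell from 3.81 to 1.83 CPM (-1.06, SE 0.17, adjusted p 0.0001) and Mxd4 fell by 0.68 (SE 0.14, adjusted p 0.000619). In CGR8 at 5 h 2 of 4 fell, near the 52.1% of all genes called. They were Mnt, which went from 58.2 to 15.4 CPM (-1.92, SE 0.14, adjusted p 2e-07) and Mxd4 from 1.20 to 0.417 CPM (-1.51, SE 0.30, adjusted p 0.000691). At 48 h Mxd1 and Mxd4 were higher than at 0 h in both lines, by 0.42 (adjusted p 0.0298) and 0.94 (adjusted p 2.46e-05) in NIH/3T3 and by 0.83 (adjusted p 0.00296) and 0.86 (adjusted p 0.0138) in CGR8. The count of called partners at 48 h fell to 1 without 0 h replicate A or C in NIH/3T3 and without 0 h replicate C or 48 h replicate C in CGR8. Mnt was at -0.45 at 48 h in NIH/3T3 (adjusted p 0.0162) and -0.32 in CGR8 (adjusted p 0.0909). In CGR8 at 5 h Mxd1 (-0.27, adjusted p 0.245) and Mlxipl (-0.04, adjusted p 0.934) were not called, nor was Mlxipl at 48 h (-0.76, adjusted p 0.133).

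The thioredoxin list holds the binding partners of TXNIP and enzymes that use thioredoxin. At 5 h 6 of 10 genes rose and 2 fell in CGR8 (list median 0.44, 52.1% of all genes called). In NIH/3T3 3 rose and 1 fell (median 0.23, 51% of all genes called), which is below the share of all genes. The list medians at 1 and 2 h were 0.04 and 0.22 in NIH/3T3 and -0.10 and 0.23 in CGR8. At 48 h 7 of 10 were lower and 1 higher in NIH/3T3 (median -0.55, 52.3% of all genes called), and 3 were lower in CGR8 (median -0.37, 27.8% of all genes called, and 6 called with library totals alone or with only the compared groups fitted). No gene of the list reached a 2-fold change. The gene that fell at 5 h in NIH/3T3 was Txnrd1, cytosolic thioredoxin reductase, named after its values were seen, from 915 to 479 CPM (-0.93, SE 0.08, edgeR adjusted p 4.01e-07). The NIH/3T3 5 h count of 4 called genes was 1 to 2 without any 1 of 5 libraries (0 h replicate A, B or C, 5 h replicate A or C) and 8 without the 3 set-aside libraries.

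Of the genes of glucose uptake and glucose 6-phosphate, 6 fell and 1 rose at 5 h in each line, 7 of 12 tested in NIH/3T3 and 7 of 14 in CGR8, near the 51% and 52.1% of all genes called. The list median was -0.37 over 12 tested genes in NIH/3T3 and -0.42 over 14 in CGR8, with all genes at -0.01. Hk2, a hexokinase that makes glucose 6-phosphate, fell from 75.6 to 29.8 CPM in NIH/3T3 (-1.34, SE 0.12, edgeR adjusted p 3.2e-07). Slc2a8, which encodes an intracellular glucose transporter, fell from 7.54 to 3.48 CPM there (-1.12, SE 0.17, adjusted p 5.35e-05). At 48 h 4 were higher and 6 lower in NIH/3T3, where Hkdc1 fell from 7.55 to 3.36 CPM (-1.16, SE 0.14, adjusted p 3.87e-06). In CGR8 1 was higher and 2 were lower: Pfkfb3, which makes an activator of glycolysis, rose from 9.80 to 24.5 CPM (1.32, SE 0.18, adjusted p 4.79e-05). Slc2a1, the widely expressed glucose transporter GLUT1 and a cargo of TXNIP, was among those that fell and was named after its values were seen. It was at -0.73 in NIH/3T3 at 5 h (SE 0.10, adjusted p 3.03e-05) and -0.80 in CGR8 (SE 0.14, adjusted p 0.000177).

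Among the NEDD4-family ligases and adaptors 4 rose and 3 fell at 5 h in NIH/3T3 (10 tested, list median -0.05), and 2 rose and 5 fell in CGR8 (11 tested, median -0.32), where 51% and 52.1% of all genes were called. The only change of 2-fold or more was that of Hecw2 in NIH/3T3 at 5 h, from 0.327 to 0.722 CPM (1.05, SE 0.35, edgeR adjusted p 0.0207). These levels are low, since 3 counts come to between 0.0986 and 0.163 CPM in that line. Of the other arrestin-fold genes 2 of 6 rose and 2 fell at 5 h in NIH/3T3, and 1 of 5 rose and 2 fell in CGR8, where 51% and 52.1% of all genes were called. Both beta-arrestins were among those that fell in each line. Arrb1 went from 3.96 to 1.33 CPM in CGR8 at 5 h (-1.57, SE 0.20, adjusted p 1.37e-05) and from 37.5 to 27.4 CPM in NIH/3T3 (-0.46, SE 0.12, adjusted p 0.00561). Arrb2 went from 16.99 to 7.77 CPM in NIH/3T3 at 5 h (-1.13, SE 0.14, adjusted p 6.18e-06) and from 32.4 to 15.9 CPM in CGR8 (-1.02, SE 0.16, adjusted p 9.44e-05). At 48 h Arrb2 was still at -1.10 in NIH/3T3 (adjusted p 6.14e-06). Of 8 tested AMPK subunits and upstream kinases 2 rose and 2 fell at 5 h in NIH/3T3, and 1 rose and 4 fell in CGR8, where Camkk2, a kinase that activates AMPK, fell from 43.3 to 16.4 CPM (-1.40, SE 0.12, adjusted p 5.16e-07). The shares of all genes called were 51% and 52.1%, and without CGR8 0 h replicate A 3 of the 8 were called there. Of 8 ESCRT genes, which act with ARRDC1 in budding, 1 rose and 2 fell at 5 h in each line, below the 51% and 52.1% of all genes called. The count was 6 in NIH/3T3 without the 3 set-aside libraries, and in CGR8 it was 1 without 0 h replicate A and 5 with RLE factors or the filter at 5 CPM. Vps37b fell in NIH/3T3 from 47.7 to 18.7 CPM at 5 h (-1.35, SE 0.10, adjusted p 1.08e-07) and was at 18.5 CPM at 48 h.

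The genes most like Txnip in time course were found by Pearson's r of log2 CPM over the 15 libraries of each line, among 12369 genes tested in both lines, ranked by the lower of both r. This is a description. The libraries share time points, which sets much of any such r, and replicates share a time. The first was Hist1h1c, a linker histone gene (r 0.93 in NIH/3T3 and 0.892 in CGR8), followed by Rdh14, Bcdin3d, Ranbp6, Atg12 and Zfp719, whose lower r ranged from 0.809 to 0.863. Most like Arrdc4 were Cdk5rap1 (0.969 and 0.946), Nt5dc1, Pigp, Pspc1, Uros and Tfb1m, whose lower r ranged from 0.902 to 0.94. No member of the family was among these genes. Among the members, Arrdc4 followed Txnip at r 0.777 in NIH/3T3 and 0.619 in CGR8, and Arrdc3 followed it at 0.494 and 0.944. Mlxip ran opposite to Txnip, at -0.573 and -0.666, and opposite to Arrdc4, at -0.574 and -0.893.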

How the data were processed

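mRNA libraries of both lines were made with a stranded ligation kit, per the labels' protocols. The authors deposited read counts per gene, 1 column per library, and all 30 columns were used. STAR, DESeq2 and GRCm39 are named in the submitters' processing notes without a role. The counting tool, its strand setting and the annotation release are not given in the sources used here, so no coordinates of gene models are given, and those of the promoter windows are RefSeq's on GRCm38.p6. Symbols (51880 identifiers matched), exon lengths and overlaps came from GENCODE M21. Totals were 18.2 to 30.5 M counts per library, and the precision rests on these and on the spread between replicates.

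Tests used edgeR 4.0.16 under R 4.3.3 (filterByExpr with minimum count 10 and total 15, TMM factors, quasi-likelihood F test, Benjamini-Hochberg adjustment over all genes, called at 0.05). Each line was fitted with its 15 libraries, and line differences and untreated lines in a fit of all 30. The SE is the fitted log2 fold change divided by the root of F.

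The members and the gene lists were chosen with earlier results of these data known. Named from the lists are called genes with a change of at least 2-fold at 5 or 48 h, at most 4 a list, and exceptions are marked. The paired motif is a loosened pair of E-boxes, looked for because Txnip and Arrdc4 are known Mondo targets. Alternatives were RLE factors, library totals alone, DESeq2 1.42.0, no filter, a mean of at least 5 CPM, leaving out each library in turn, fitting only the groups compared, and a replicate block by letter. Leaving out 3 libraries together was added after the data were seen.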

Additional observations from a re-analysis of the deposited data

Results flagged for a closer look

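For 3 of the tested genes' changes the difference between the lines itself passed edgeR's quasi-likelihood test with Benjamini-Hochberg adjustment. The log2 fold change of Arrdc4 at 5 h differed by -0.70 (CGR8 minus NIH/3T3, adjusted p 0.00191), with all 3 libraries above 0 h in both lines. At 48 h it differed by -1.29 (adjusted p 4.65e-07), with all 3 libraries above 0 h in NIH/3T3 and overlapping 0 h in CGR8. The log2 fold change of Arrdc3 at 48 h was larger in CGR8 by 0.55 (adjusted p 0.0372), where all 3 libraries were above 0 h, and in NIH/3T3 they overlapped 0 h.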

How the results depend on the processing

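Of 1394 values of the tested genes under alternatives, 1355 kept their call or lack of one, 24 lost a call, 15 gained one and 0 reversed a called direction. Of these values, 34 were uncalled both times and had the other sign. For Txnip 29 of 234 values moved by more than 1 SD of its replicates and 0 changed direction.

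The number of members called moved as follows, and the cause was not tested unless stated. In CGR8 at 2 h it was 1 of 6 when only the compared groups were fitted and 1 to 4 with 1 library left out. The line difference at 2 h gave 2 without the 3 set-aside libraries and 0 to 1 with 1 library left out. At 48 h it gave 1 with library totals alone and 1 to 3 with 1 library left out, and at 5 h 2 with library totals alone and 1 to 2 with 1 library left out. In NIH/3T3 at 48 h the filter at 5 CPM gave 2, where Arrdc2 was below the filter and not tested and the call of Mlx was lost (-0.24, adjusted p 0.051). Library totals alone moved the median of all genes in CGR8 at 5 h to -0.12, and in the line difference to -0.06 at 5 h and -0.11 at 48 h.

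The shares of all genes called moved by over 1.5 times mainly without a filter, which adds genes at low counts, and at 1 h. In NIH/3T3 at 1 h the share was 2.36% with DESeq2, 1.22% with the filter at 5 CPM, 0.207% with the compared groups alone and 0.364% to 3.33% with 1 library left out. In NIH/3T3 at 2 h it was 21.4% to 39.2% with 1 library left out. In CGR8 at 1 h it was 0.938% with DESeq2, 0.604% without a filter and 0.0916% to 0.16% with 1 library left out, and at 2 h 6.53% to 24.1%, with 30.1% at the 5 CPM filter. Without the 3 set-aside libraries the share was 54.0% in NIH/3T3 at 2 h and 20.4% for the line difference at 5 h. For the line difference it ranged over the alternatives from 0.0918% to 0.304% at 1 h and from 0.873% to 3.34% at 2 h. Counts of the other lists moved by over 1.5 times in 39 of 392 values.

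The replicate letters showed no regular pairing of the samples: of 60 correlations between libraries of the same letter 12 were over 0.1 and 9 below -0.1. They ranged from -0.578 to 0.421. With 3 replicates per group, single outlying libraries can set such values, so pairing is not excluded. With the letter as a replicate block the members called were 5 of 6 at 5 h in NIH/3T3 and 6 of 6 in CGR8, as without it, and the block changed no other member count.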
